A study of Mus musculus with 8 samples.

Results

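The ATF4 branch of the integrated stress response was read from 10 genes that were chosen by name (Atf4, Atf5, Ddit3, Trib3, Chac1, Gdf15, Asns, Psat1, Phgdh and Mthfd2) in mouse hearts after transverse aortic constriction (TAC), a ligature around the aortic arch that loads the left ventricle with pressure. The 10 genes held 11 of the rows in files of 32285 genes, because Ddit3 had a second row that was at 0 in every sample, and both rows were summed. The question was whether these transcripts stood higher after TAC, and whether macrophages of the heart taken 4 weeks after TAC, which held more Lars2 transcripts, also held more of this amino acid and mitochondrial stress response. Lars2 encodes the mitochondrial leucyl-tRNA synthetase.

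All mice were wild type C57BL/6J males, 8 weeks old, and were given either a sham operation without ligation or TAC, with hearts taken at 2, 4 and 6 weeks (TAC-2w, -4w and -6w). The time at which the sham heart was taken is not given in the sources used here. Each condition had 1 Visium spatial section and 1 droplet single-cell library, so no difference between conditions could be tested, and every interval below is a 95% interval for counting error only. By the labels, the sham and TAC-2w sections shared batch 1 and the sham and TAC-6w libraries shared batch 3, while the other samples were each in another batch than the sham sample of their kind, so batch and condition cannot be told apart there.

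ATF4 is a transcription factor whose translation goes up when kinases phosphorylate the initiation factor eIF2alpha, as happens when amino acids run short, when mitochondria fail or when unfolded proteins build up in the endoplasmic reticulum. It switches on amino acid transporters and enzymes that make asparagine, serine and folate-carried carbon units, and with them the partner factors ATF5 and CHOP (the product of Ddit3). In the heart this response is known from mitochondrial cardiomyopathies, where the secreted factor GDF15 is one of its outputs. Because ATF4 is controlled mainly at translation, the level of the Atf4 transcript says less of its activity than the levels of its targets do.

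ATF4 binds as a dimer with C/EBP factors to an element whose core is TGATGNAA (TTNCATCA on the other strand). In the RefSeq promoters of mouse build GRCm38.p6, which run from 250 bases before to 50 bases after the start of transcription, 13 promoters of the 10 genes were listed and 3 held this core on either strand, those of Asns, Chac1 and Trib3. The core stood in 1304 of 32851 promoters (3.97%), and its form TGATGCAA in 294 (0.895%), among them that of Chac1. The 3 promoters are printed because they show where the element lies, with the core in capitals, 5′ to 3′ on the strand of the gene. The first is that of Asns at chr6:7693160-7693459 on the minus strand, where the core begins at base -23 from the start. That of Chac1 at chr2:119350992-119351291 on the plus strand has it at base -193, and that of Trib3 at chr2:152344011-152344310 on the minus strand at base 14, in both on the opposite strand.
Asns: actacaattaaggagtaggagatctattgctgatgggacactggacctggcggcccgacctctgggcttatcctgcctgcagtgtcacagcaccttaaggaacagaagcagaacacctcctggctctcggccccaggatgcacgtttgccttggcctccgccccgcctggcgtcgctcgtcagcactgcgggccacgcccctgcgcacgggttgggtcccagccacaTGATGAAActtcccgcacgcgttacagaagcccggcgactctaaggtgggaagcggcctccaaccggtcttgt
Chac1: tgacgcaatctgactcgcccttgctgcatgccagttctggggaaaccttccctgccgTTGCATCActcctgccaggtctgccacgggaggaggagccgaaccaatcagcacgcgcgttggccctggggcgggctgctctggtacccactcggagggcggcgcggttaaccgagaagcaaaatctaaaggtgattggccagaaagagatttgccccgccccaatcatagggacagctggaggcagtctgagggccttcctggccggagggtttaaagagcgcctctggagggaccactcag
Trib3: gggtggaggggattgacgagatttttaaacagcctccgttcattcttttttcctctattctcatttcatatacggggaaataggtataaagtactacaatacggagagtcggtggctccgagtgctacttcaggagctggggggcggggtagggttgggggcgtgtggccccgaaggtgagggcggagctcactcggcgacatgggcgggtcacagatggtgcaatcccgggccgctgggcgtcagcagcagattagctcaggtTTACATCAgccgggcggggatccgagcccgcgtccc
A match describes the letters in this window and shows no binding, and its absence from the windows of the other 7 genes says nothing of the factor.

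The 4 sections held 1228 to 2193 spots and 25996378 to 48754396 UMIs (unique molecular identifiers, counts of captured transcripts), and the 4 libraries 28793316 to 86671674 UMIs, with 5399 to 7965 cells kept per library. Mitochondrial transcripts took 51.5% of the UMIs of the sham section and 42.2 to 44.2% of those of the TAC sections. Pairs of libraries shared 9 to 30 cell barcodes. The TAC-4w library stood apart in its makeup. B cell-like cells were 37.1% of its cells and neutrophil-like cells 19.2%, against 2.48 to 16.9% and 1.11 to 3.59% in the other libraries, while fibroblast-like cells were 6.62% and macrophage-like cells 2.85%, against 51.3 to 56.3% and 16.9 to 25.1%. Cells labelled as mixed cardiac cells held few cardiomyocyte-like ones (11 to 106 per library), whereas the 6 cardiomyocyte markers summed to between 25600 and 33900 UMIs of each gene per 1000000 UMIs (CPM) in the sections.

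In the sections, the 10 genes together stood at 75.8 CPM (72.5 to 79.2) in sham, 72.8 CPM (70.5 to 75.3) in TAC-2w, 102.7 CPM (99.3 to 106.3) in TAC-4w and 110.1 CPM (107.2 to 113.1) in TAC-6w. Of the 1971 UMIs of the 10 genes in the sham section, 953 were of Atf4 and 372 of Atf5. The sum thus follows Atf4 and Atf5 most, and the targets are given gene by gene below. The TAC-4w and TAC-6w sections lay above the sham section, with ratios to sham of 1.36 (lower bound 1.28) and 1.45 (lower bound 1.38), and the TAC-2w section, of the sham section's own batch, did not, with 0.961. A gene was counted as past the fold when its ratio to sham was at least 1.5 or at most the inverse. In TAC-6w 7 of 10 genes were past it upward (Ddit3, Trib3, Chac1, Gdf15, Asns, Psat1 and Mthfd2), beside 17.6% of the 12441 genes with at least 100 UMIs over the 4 sections, and 0 of 10 downward (1.59%). In TAC-4w 3 of 10 were past it upward (Ddit3, Psat1 and Mthfd2; 15.5% of all genes) and 1 downward (Chac1; 3.98%), and in TAC-2w 0 upward (5.22%) and 1 downward (Phgdh; 5.71%).

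Beside the lower mitochondrial share of the TAC sections, the level of most other genes was shifted. The median log2 ratio to sham of all genes tested was 0.03 in TAC-2w, 0.20 in TAC-4w and 0.30 in TAC-6w, and that of the 10 genes was -0.07, 0.35 and 0.63. With the median ratio of all genes set to 1, the sum of the 10 genes was 1.18 times sham in both TAC-4w and TAC-6w, and 3 genes of TAC-6w were still past 1.5 (Gdf15 4.81, Mthfd2 1.86 and Asns 1.53; 6.5% of all genes). In TAC-4w the same 4 genes were past the fold, 3 upward (Ddit3 1.80, Psat1 2.87 and Mthfd2 1.83; 9.2%) and 1 downward (Chac1 0.559; 7.19%). In sections, more cells of a type and more RNA per cell cannot be told apart. The 6 macrophage markers summed to 211, 191, 407 and 307 CPM from sham to TAC-6w in order of time, with none at 0, and the 6 neutrophil markers to 29.8, 6.09, 88.4 and 15.9 CPM, and the part of these cells in the section values was not tested.

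**Figure D1:**
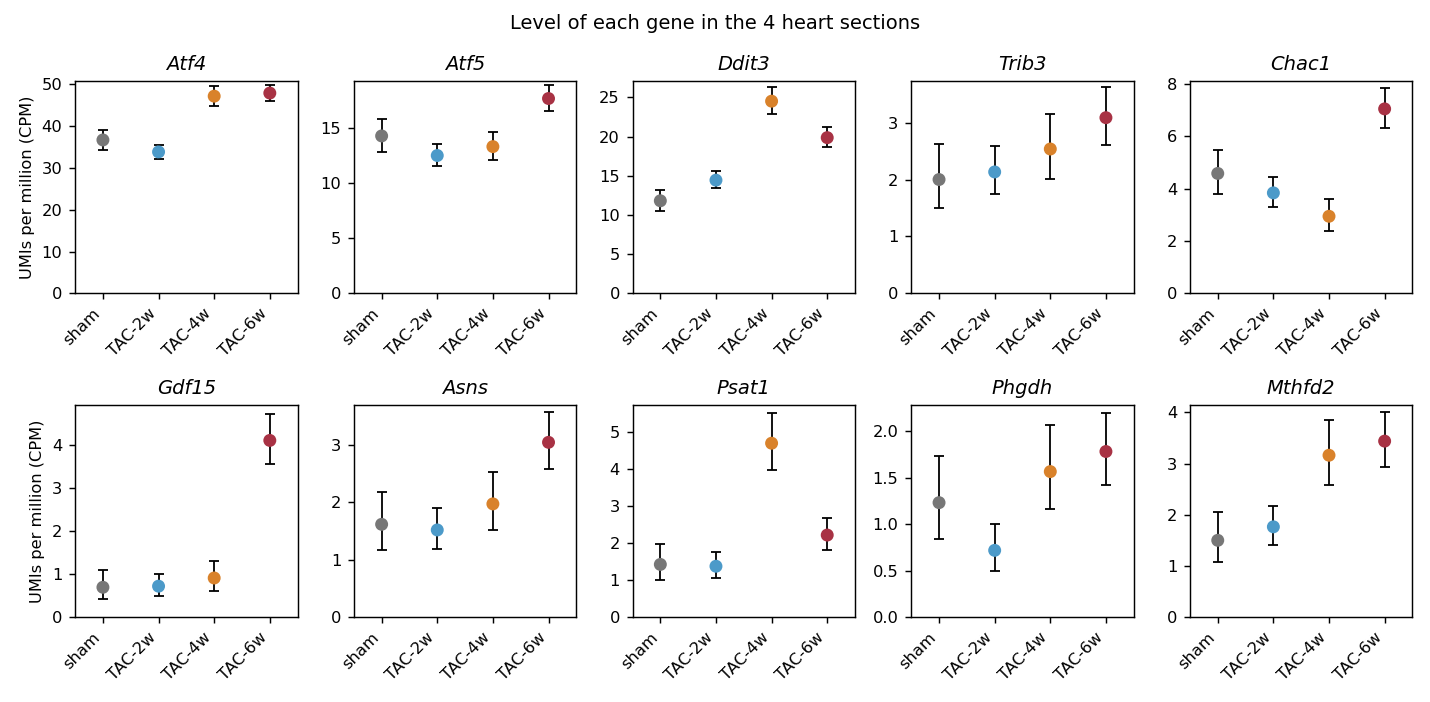
CPM of each of the 10 genes in the 4 sections; points are the value of 1 section and bars the exact Poisson 95% interval of its UMIs, with each vertical axis starting at 0. Gdf15 stands at 4.10 CPM in TAC-6w against 0.692 to 0.908 in the other sections, and Psat1 at 4.70 CPM in TAC-4w against 1.37 to 2.22.

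Of the transcription factors, Atf4 itself stood at 36.7 CPM in sham, 33.8 in TAC-2w, 47.1 in TAC-4w and 47.9 in TAC-6w. The intervals of the 2 later sections lay above that of sham without overlap, but both ratios (1.29 and 1.31) were under the fold. Atf5, a related factor of the mitochondrial stress response, stood at 14.3 CPM in sham, 12.5 in TAC-2w, 13.3 in TAC-4w and 17.7 in TAC-6w, and only the TAC-6w interval (16.5 to 18.9) lay clear of that of sham (12.9 to 15.8). Ddit3, which encodes the pro-apoptotic factor CHOP, stood at 11.8 CPM in sham, 14.4 in TAC-2w, 24.5 in TAC-4w and 19.9 in TAC-6w. It was highest in TAC-4w, at 2.08 times sham (1.82 to 2.38), and was 1.68 times sham (1.48 to 1.92) in TAC-6w, and all 3 TAC intervals lay above that of sham.

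Of the regulators downstream, Trib3, a pseudokinase that holds ATF4 and CHOP in check, stood at 2.00 CPM in sham, 2.13 in TAC-2w, 2.54 in TAC-4w and 3.09 in TAC-6w. Its intervals overlapped that of sham in TAC-2w and TAC-4w, and in TAC-6w it reached from 2.61, just under the upper bound of sham (2.62), with a ratio of 1.54 (1.12 to 2.16). Chac1, an enzyme that breaks down glutathione, stood at 4.58 CPM in sham, 3.84 in TAC-2w, 2.94 in TAC-4w and 7.04 in TAC-6w. It was thus the lowest in TAC-4w (0.643 times sham, 0.485 to 0.850) and the highest in TAC-6w (1.54 times, 1.25 to 1.91), so that Chac1 and Ddit3 were on opposite sides of sham in TAC-4w.

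Of the biosynthetic enzymes, Asns (asparagine synthetase) stood at 1.62 CPM in sham, 1.52 in TAC-2w, 1.97 in TAC-4w and 3.04 in TAC-6w, and was apart from sham only in TAC-6w (1.88 times, 1.33 to 2.72). Psat1, the aminotransferase of serine synthesis, stood at 1.42 CPM in sham (37 UMIs), 1.37 in TAC-2w (67 UMIs), 4.70 in TAC-4w (150 UMIs) and 2.22 in TAC-6w (107 UMIs). It was highest in TAC-4w, at 3.30 times sham (2.29 to 4.87), with the interval of that section above those of the other 3. Phgdh, the first enzyme of the same pathway, did not follow it, with 1.23 CPM in sham, 0.718 in TAC-2w, 1.57 in TAC-4w and 1.78 in TAC-6w, lowest in TAC-2w (0.583 times sham, 0.351 to 0.973), with all 3 TAC intervals overlapping that of sham. Mthfd2, the mitochondrial folate enzyme, stood at 1.5 CPM in sham, 1.76 in TAC-2w, 3.16 in TAC-4w and 3.44 in TAC-6w, with the later sections 2.11 (1.44 to 3.13) and 2.29 times sham (1.61 to 3.34).

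Gdf15, the secreted stress cytokine, showed the largest ratio of the 10 genes. It had 18 UMIs in the sham section, 35 in TAC-2w, 29 in TAC-4w and 198 in TAC-6w (0.692, 0.718, 0.908 and 4.10 CPM), a ratio of 5.92 (3.65 to 10.2) in TAC-6w with the other TAC intervals overlapping that of sham. Over the alternatives its ratio ran from 4.81 to 10.4 in TAC-6w, from 1.10 to 2.36 in TAC-4w and from 0.887 to 3.43 in TAC-2w, the highest of each with spots thinned to 5000 UMIs. No single spot carried this, since the 198 UMIs lay in 172 of 2193 spots and no spot held more than 4. In the TAC-6w section 56.4% of the spots with a Gdf15 UMI had such a spot beside them, against 31.6% of the other spots, and the plot of Gdf15 by spot shows them denser on the right side of the section. The same direction was found there for Chac1 (65.4 against 50.2%), Mthfd2 (49.0 against 30.15%), Trib3, Ddit3, Atf4 and Atf5. Asns, Psat1 and Phgdh went the other way. These shares are of raw UMIs, and the part of spot depth in them was not tested.

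**Figure D2:**
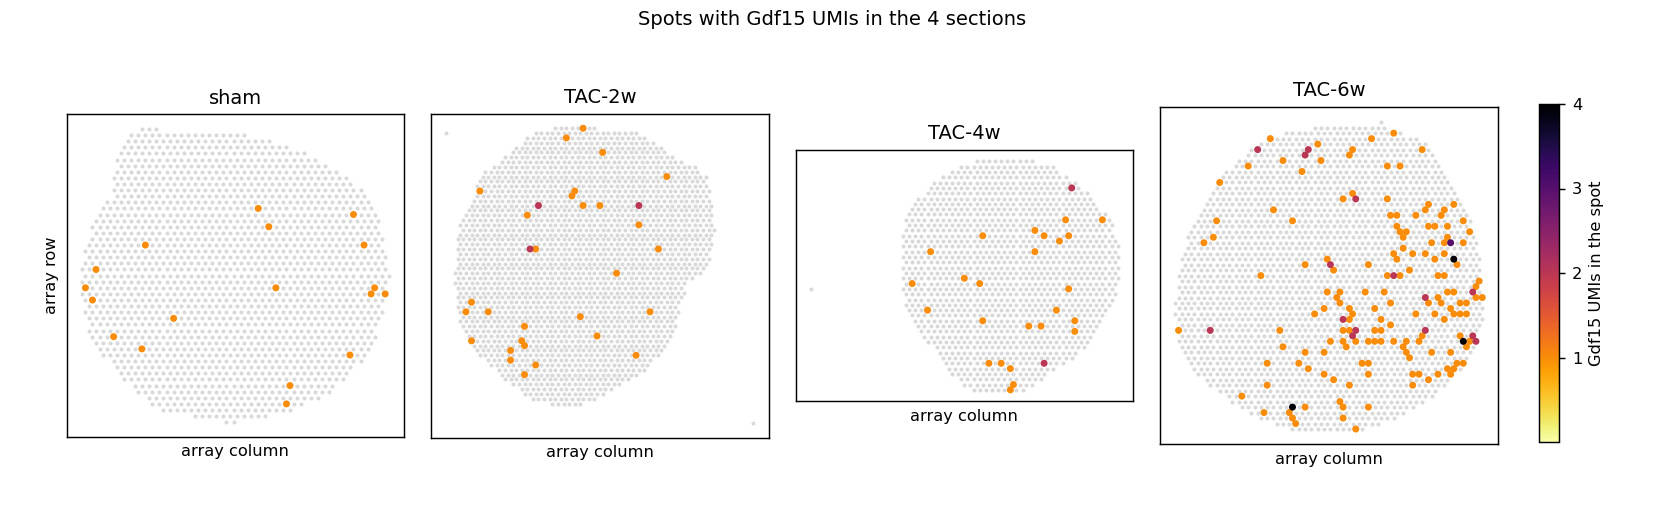
Array position of the spots of the 4 sections, in grey, with the spots that held Gdf15 UMIs coloured by their number. They are 18, 32, 27 and 172 spots in sham and then TAC-2w, -4w and -6w, and in TAC-6w they are densest on the right side of the array.

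Within sections, the members were somewhat higher in spots with the most Nppa, collagen or macrophage marker transcripts. In the tenth of spots with the most Nppa, the atrial natriuretic peptide gene that ventricles re-express under load, the sum of the 10 genes was 1.28, 1.13, 1.28 and 1.30 times that of the other spots of the same section (sham, TAC-2w, TAC-4w, TAC-6w). The same was 1.24, 1.17, 1.25 and 1.26 in the tenth with the most collagen (Col1a1, Col1a2 and Col3a1), and 1.25, 1.13, 1.13 and 1.21 in the tenth with the most macrophage markers. These ratios were of like size in sham and TAC. Spots at the tissue edge did not stand apart, with 0.963, 0.993, 0.911 and 0.991. Mthfd2 was 2.26 times higher in Nppa-high spots of TAC-4w (1.34 to 3.67) and 2.05 times in those of TAC-6w (1.27 to 3.17), and Gdf15 3.09 (1.19 to 7.27) and 2.25 times (1.48 to 3.32). In TAC-6w the Nppa-high spots were shallower than the others (median 9984 against 21122 UMIs), and the part of depth in these ratios was not tested.

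The libraries show which cells held the transcripts, by the mean CPM over the libraries with at least 50 cells of a class. Classes are named "-like" from 6 markers each, and no class was formed from the 10 genes. Atf4 was found in every class, highest in neutrophil-like cells (mean 384 CPM, 285 to 574 over the libraries) and lowest in cardiomyocyte-like (34.6) and red blood cell-like ones (28.0). Ddit3 was also highest in neutrophil-like cells (262 CPM, 192 to 390), and no library of the next class, monocyte-like cells (81.8 CPM, 23.4 to 129), came up to this range. Atf5 was a gene of fibroblast-like cells (217 CPM, 189 to 254), well above smooth muscle cell and pericyte-like ones (68.2 CPM), and 60.1 to 73.8% of fibroblast-like cells held an Atf5 UMI against 2.63 to 8.29% of macrophage-like and 0.438 to 2.59% of B cell-like cells. Median depths were 6205 to 13963 UMIs in fibroblast-like, 3645 to 8848 in macrophage-like and 1901 to 4348 in B cell-like cells, and after thinning each cell to 1000 UMIs the shares were 15.7 to 19.3% in fibroblast-like and 0.550 to 0.948% in macrophage-like cells.

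Chac1 was highest in neutrophil-like cells (29.4 CPM, 21.98 to 37.2), with a UMI in 7.22 to 9.17% of them against 0 to 0.0623% of macrophage-like cells, which were deeper. In each library it was above every other class of at least 50 cells, but the neutrophil-like values rest on 12 UMIs in sham and 6 in TAC-2w. Cardiomyocyte-like cells had 11.4 CPM (5.10 to 17.75) from 8 UMIs over 2 libraries, so in TAC-2w these classes cannot be ranked. In the sections the highest neutrophil marker sum (TAC-4w) went with the lowest Chac1. Trib3 and Asns were highest in endothelial cell-like cells (12.0 CPM, 9.28 to 15.2, and 11.8 CPM, 6.29 to 15.4), and neither stood apart from fibroblast-like cells (10.6 and 7.04 CPM), since the ranges over the libraries overlapped. For Asns, dividing (8.99 CPM, 3.89 to 17.7) and neutrophil-like cells (8.20 CPM, 2.38 to 16.3) lay in between, with ranges that overlapped as well. The serine and folate enzymes were highest in dividing cells, with 30.6 CPM for Psat1 (27.3 to 36.2), 44.5 for Phgdh (16.6 to 96.3) and 51.5 for Mthfd2 (34.9 to 67.8). Psat1 there was above the next class, dendritic cell-like cells (12.2 CPM, 9.59 to 17.4), in each library, whereas the range of Phgdh held that of B cell-like cells (39.4 CPM, 34.1 to 41.9) and the range of Mthfd2 overlapped that of dendritic cell-like ones (34.5 CPM, 29.6 to 41.4). Gdf15 was highest in macrophage-like (93.6 CPM, 27.6 to 159) and monocyte-like cells (92.4 CPM, 9.94 to 147), which did not differ beyond their spread.

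**Figure D3:**
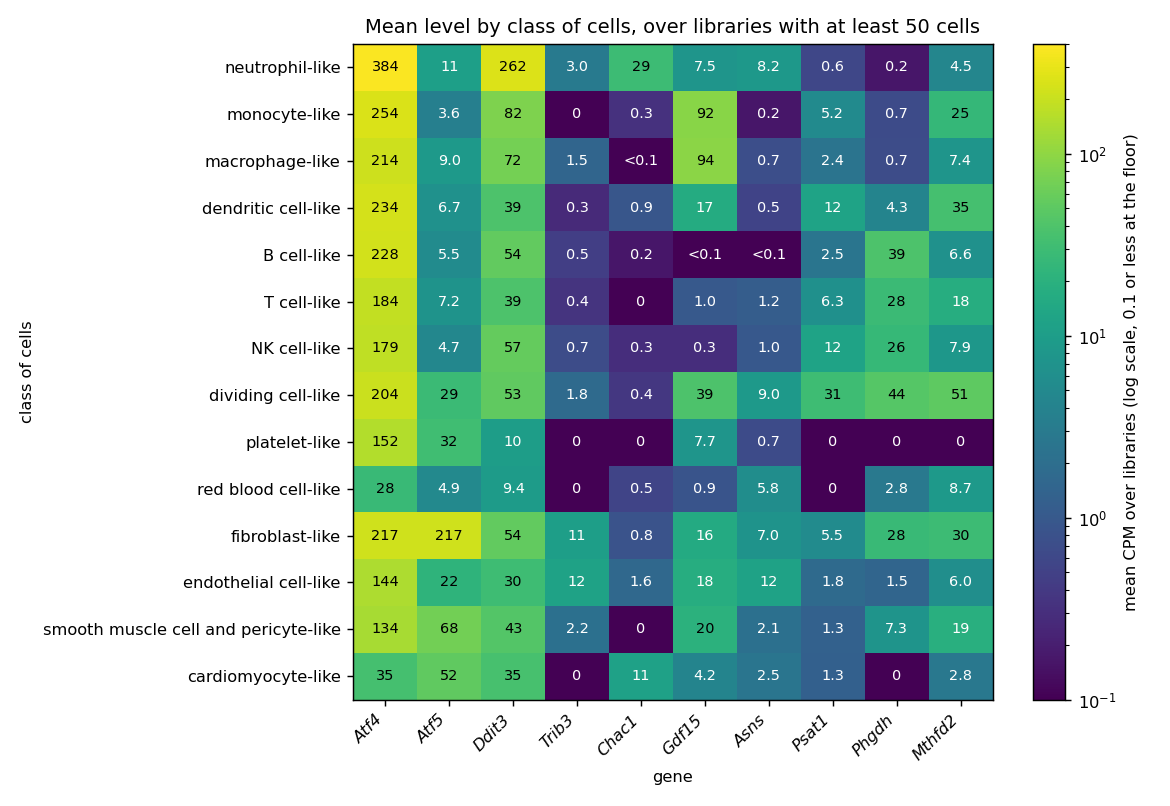
Mean CPM of each gene (columns) in each class of cells (rows), over the libraries with at least 50 cells of the class, on a log colour scale with the value written in each field. Atf5 is brightest in fibroblast-like cells (217), Chac1 in neutrophil-like (29) and Gdf15 in macrophage-like and monocyte-like cells (94 and 92).

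Across 43 sums of a class in a library, the gene most like Atf4 was Rab4b (Pearson r of log2(CPM + 1) = 0.888), that most like Atf5 was Gstt1 (0.924), like Ddit3 Atp6v0d1 (0.883), like Trib3 Sned1 (0.899) and like Chac1 Lsmem1 (0.846). Gdf15 was most like Ctsb, Grn and Hfe (0.865, 0.863 and 0.835), Asns like Lbp (0.779), Psat1 like the replication gene Mcm3 (0.799), Phgdh like Aff3 (0.835) and Mthfd2 like Gpsm2 (0.768). The 43 sums share libraries, classes and depth, and the values are a description of these profiles.

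Macrophage-like cells numbered 1605 in sham, 1581 in TAC-2w, 186 in TAC-4w and 911 in TAC-6w, in 1 cluster led by C1qa, C1qc and C1qb. Lars2 stood at 787, 754, 1199 and 816 CPM in them, so it was higher in TAC-4w alone, at 1.52 times sham (1.45 to 1.60). The sum of the 10 genes was 0.648 times sham in TAC-4w (0.580 to 0.721), 1.04 in TAC-2w and 1.43 in TAC-6w (1.35 to 1.504), the library of the sham library's own batch. Atf4 held 2523 of its 4737 UMIs in sham. Other classes had a lower sum in TAC-4w as well. It was 240 CPM against 619 in sham in monocyte-like cells, 263 against 408 in B cell-like and 202 against 295 in T cell-like cells. It was 236 against 342 in NK cell-like, 523 against 715 in neutrophil-like and 332 against 500.5 over all kept cells. In red blood cell-like cells it was 62.8 against 59.2. In the 18 of the 186 TAC-4w macrophage-like cells that held no UMI of a monocyte or neutrophil marker, the sum was 1.02 times the same cells of sham (0.719 to 1.41). That interval reaches both sides of sham and overlaps that of all 186 cells, so these few cells cannot tell whether the sum stayed below sham. Of the 10 genes, 5 had at least 100 UMIs over the 4 libraries of this class. In TAC-4w 0 of the 5 were past the fold upward (14.0% of the 9944 genes tested) and 3 downward (Atf5, Gdf15 and Mthfd2; 13.3%), in TAC-2w 0 upward (1.28%) and 1 downward (Mthfd2; 1.25%), and in TAC-6w 1 upward (Gdf15; 5.66%) and 0 downward (17.2%). With no minimum of UMIs, 9 genes entered for TAC-4w, of which 3 were past the fold upward (Asns, Trib3 and Phgdh; 24.1% of the 12933 genes with a UMI in both libraries) and 4 downward (13.1%).

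Gene by gene, Atf4 stood at 208 CPM in sham, 205 in TAC-2w, 163 in TAC-4w and 280 in TAC-6w, lowest in TAC-4w (0.787 times sham, 0.685 to 0.901) and highest in TAC-6w (1.35 times). Ddit3 stood at 73.2, 71.6, 48.8 and 93.6 CPM in the same order, with the TAC-4w interval (37.98 to 61.8) under that of sham (68.5 to 78.2). Its ratio of 0.667 lay just inside the limit. Gdf15 stood at 80.0, 108, 27.6 and 159 CPM, the TAC-4w value 0.345 times sham (0.244 to 0.475) and the TAC-6w value 1.98 times (1.78 to 2.20), with no overlap between any of the 4 intervals.

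These Gdf15 values rest on few cells. In TAC-4w 39 UMIs lay in 10 cells, 34 of them in 5 cells, and in TAC-6w 557 UMIs lay in 92 cells, with 40.9% in 5 cells, so the counting intervals do not hold the spread between cells. Gdf15 UMIs were found in 9.97% of macrophage-like cells of sham, 11.1% of TAC-2w, 5.38% of TAC-4w (2.61 to 9.67, exact binomial interval) and 10.1% of TAC-6w, against 0 to 0.0825% of B cell-like cells. Thinned to 1000 UMIs per cell, the shares were 4.11, 4.84, 1.10 and 6.21%, with 4 to 41 cells per library too shallow to enter. Mthfd2 had 122, 87, 3 and 41 UMIs (10.0, 5.93, 2.12 and 11.7 CPM), and Atf5 157, 146, 6 and 31 UMIs (12.9, 9.96, 4.24 and 8.82 CPM), so both TAC-4w values rest on 6 UMIs or fewer.

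The other 5 genes were too low in macrophage-like cells for a statement about TAC-4w. Asns had 7, 10, 2 and 1 UMIs, Trib3 21, 17, 4 and 1, Psat1 36, 48, 1 and 10, and Phgdh 9, 5, 2 and 1 in sham and then TAC-2w, -4w and -6w. Asns was 2.46 times sham in TAC-4w (0.249 to 12.9), Trib3 1.64 (0.408 to 4.85) and Phgdh 1.91 (0.201 to 9.23), each with an interval that held 1. Chac1 had 1 UMI in sham and 0 in the other libraries.

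The TAC-4w macrophage-like cells also differed in their markers. The 6 macrophage markers summed to 11430 CPM there against 15840 in sham, the 6 monocyte markers to 500 against 87.4, the 6 neutrophil markers to 338 against 52.9, the NK cell markers to 156 against 15.6 and the platelet markers to 855 against 2716, and of all these only the monocyte marker Cd300e was at 0 in TAC-4w. In the same library the neutrophil marker sum was 731 CPM in fibroblast-like cells, while the monocyte marker sum was 48.6. A UMI of a monocyte or neutrophil marker was found in 168 of the 186 cells (90.3%), against 24.0 to 27.6% in the other libraries. In an alternative added after the data were seen, cells without such a UMI were compared, which left 18 TAC-4w cells and 1168 sham cells. The sum of the 10 genes was then 1.02 times sham (0.719 to 1.41), from 37 UMIs in TAC-4w. This interval reaches both sides of sham and also overlaps that of all TAC-4w macrophage-like cells, so 18 cells cannot tell whether the lower sum was lost. Atf4 was at 0.972, Ddit3 at 1.56 (0.744 to 2.89) and Gdf15 at 0.262 (0.0317 to 0.952, 2 UMIs). All 4 Trib3 and all 2 Asns UMIs of the TAC-4w macrophage-like cells lay in these 18 cells, so that Trib3 was 22.7 times sham (5.53 to 70.5) and Asns 36.4 times (3.46 to 222), from 16 and 5 UMIs in sham. The 4 Trib3 UMIs lay in 3 cells and the 2 Asns UMIs in 1 cell, so these counting intervals do not hold the spread between cells. In cells this few, 27.9% of all genes were past the fold upward and 34.8% downward. In TAC-6w the same alternative gave 1.497 (1.41 to 1.59). The part of the marker differences in the result was not tested.

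**Figure D4:**
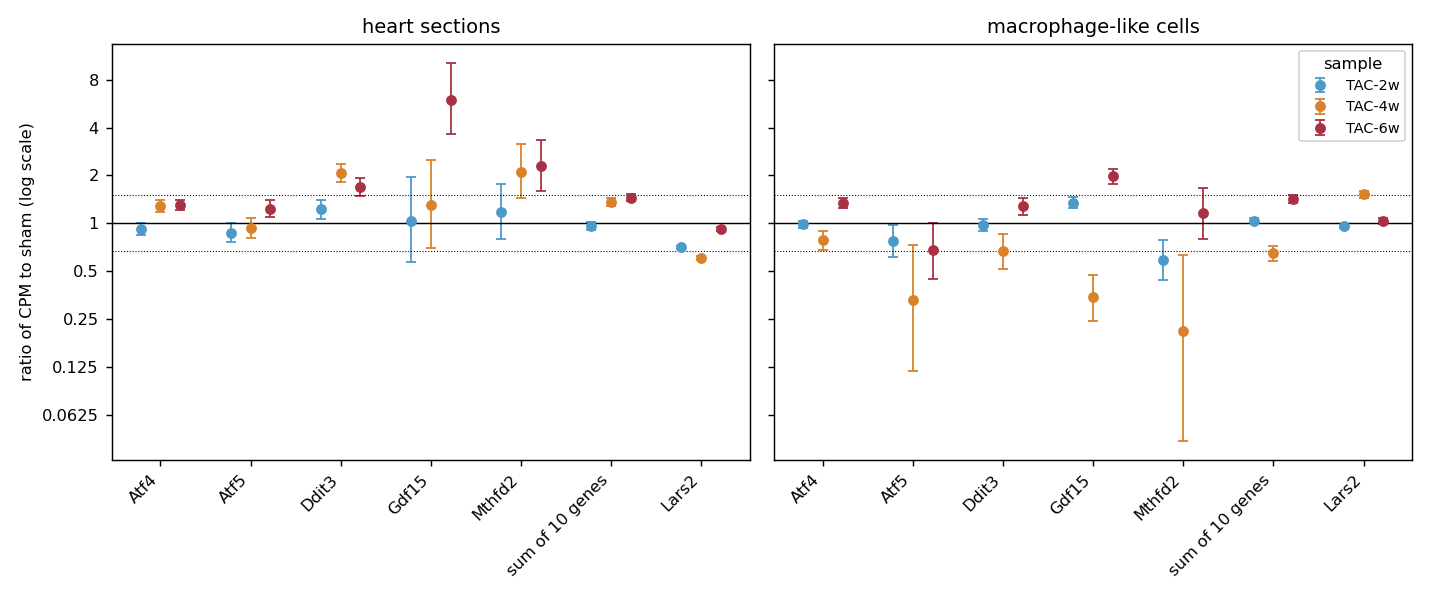
Ratio of CPM to sham on a log scale for the 5 genes with enough UMIs in macrophage-like cells, the sum of the 10 genes and Lars2, in sections (left) and macrophage-like cells (right); bars are exact 95% counting intervals and dotted lines the 1.5-fold limits. In macrophage-like cells of TAC-4w Lars2 stands at 1.52 and the sum at 0.648, and in sections of TAC-4w Lars2 at 0.604 and the sum at 1.36.

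In sections Lars2 was 407, 288, 246 and 376 CPM in sham and then TAC-2w, -4w and -6w, lowest in TAC-4w at 0.604 times sham, where the sum of the 10 genes was 1.36 times, but Chac1 (0.643) and Atf5 (0.932) were under sham as well. Lars2 was 1.55 times sham over all kept cells of the TAC-4w library. By class it was 1.73 times sham in dividing cells, 1.56 in T cell-like, 1.23 in fibroblast-like and 1.16 in endothelial cell-like cells and 0.901 in neutrophil-like ones, so the higher level was not only in macrophage-like cells.

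Within a library, where batch is shared, macrophage-like cells were split at the median share of Lars2 among their UMIs. The sum of the 10 genes in the Lars2-high cells was 1.06 times that in the Lars2-low cells in sham (1.00 to 1.13), 0.990 in TAC-2w (0.941 to 1.04), 1.24 in TAC-4w (1.00 to 1.54) and 0.844 in TAC-6w (0.770 to 0.925). The direction was thus not the same in the 4 libraries. The TAC-4w ratio came from Atf4 (1.65, 1.26 to 2.15), while Ddit3 (0.701) and Gdf15 (0.592) were lower in the Lars2-high cells, with intervals that held 1, and each of the other 7 genes had 4 UMIs or fewer on either side of the split. In TAC-6w Atf4 was likewise higher (1.26, 1.11 to 1.43) and Gdf15 lower (0.418, 0.342 to 0.509). Lars2-high cells had fewer UMIs in every library (median 5030 against 8460 in TAC-4w). They also had more of Gm42418, a feature that overlaps ribosomal RNA sequence, by 1.65, 1.60, 2.54 and 1.97 times, and the part of either in these ratios was not tested.

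**Figure D5:**
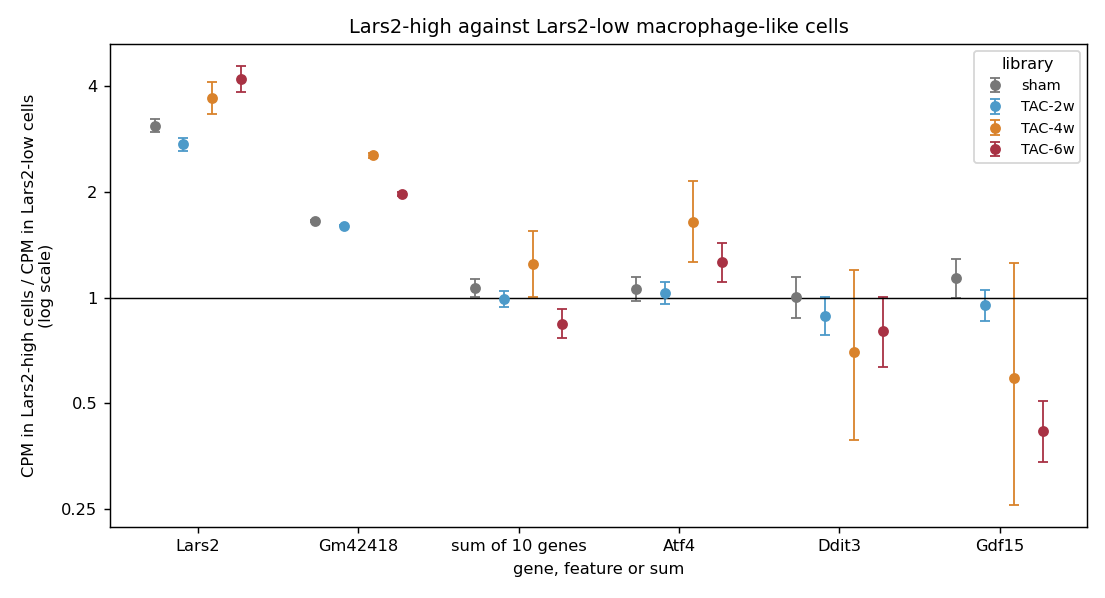
Ratio of CPM in Lars2-high to CPM in Lars2-low macrophage-like cells of each library on a log scale, with exact 95% counting intervals; the Lars2 ratios (2.73 to 4.17) follow from the split itself. Gm42418 is higher in Lars2-high cells of all 4 libraries, whereas the sum of the 10 genes lies between 0.844 and 1.24.

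In fibroblast-like cells (4482, 3227, 432 and 2874 cells in sham and then TAC-2w, -4w and -6w), the sum of the 10 genes was 0.928 times sham in TAC-4w (0.895 to 0.962) and 1.30 times in TAC-6w (1.27 to 1.32). Of 9 genes tested, 0 were past the fold upward in TAC-4w (14.1% of all genes) and 2 downward (8.25%), Asns at 8.02 CPM in sham and 5.08 in TAC-4w, and Psat1 at 5.88 and 3.33. In TAC-4w Atf4 was just inside the lower limit (0.672 times sham, 0.629 to 0.718), and Mthfd2 was inside the upper one at 1.36 times (1.18 to 1.57). In TAC-6w 1 was past it upward (7.93%), Ddit3 at 49.1 CPM in sham and 76.8 in TAC-6w, and 0 downward (13.9%). The class is made of clusters whose shares differed. Cluster 0, led by Pla1a, Pcsk6 and Cxcl14, held 2002 of the sham and 2148 of the TAC-6w cells, and cluster 1, led by Igfbp3, Sfrp2 and Rbp4, held 2312 and 655. In sham, cluster 0 had the higher CPM of Atf4 (282 against 189), Atf5 (257 against 142), Trib3 (15.0 against 4.87) and Gdf15 (25.0 against 8.59). In alternatives added after the data were seen, each cluster was compared on its own. Within cluster 0 the TAC-6w sum was 1.17 times sham (1.14 to 1.198), with Ddit3 at 1.52 and Mthfd2 at 1.54 past the fold (10.3% of all genes upward). Within cluster 1 it was 0.986 (0.935 to 1.04), with Asns at 0.521 and Phgdh at 0.568 past it downward (19.5%) and Ddit3 at 1.10. In TAC-4w the direction of the class was not that of cluster 0, where the sum was 1.196 times sham (1.13 to 1.27), Trib3 stood at 1.88 (1.31 to 2.63) and Mthfd2 at 1.52 (1.11 to 2.05; 17.2% upward), and no gene tested was past the fold downward. In cluster 1 the TAC-4w sum was 0.971 (0.924 to 1.02), with Psat1 at 0.327, Phgdh at 0.618 and Asns at 0.644 past it downward (11.6%). In TAC-4w Atf5 was 1.46 times sham within cluster 0 (91 cells) and 1.44 times within cluster 1 (301 cells), against 1.19 times in the class.

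In endothelial cell-like cells (493, 569, 482 and 198), the sum of the 10 genes was 0.895 times sham in TAC-4w (0.813 to 0.986) and 1.36 times in TAC-6w (1.18 to 1.56). Of these genes 6 were tested, and 3 were past the fold upward in TAC-4w (17.8%), Ddit3 at 1.56 times sham, Asns at 2.45 (1.49 to 4.21) and Trib3 at 1.64, with 0 downward (13.0%). In TAC-6w 3 were past it upward (13.8%), Ddit3 at 1.71, Asns at 2.41 and Gdf15 at 11.7 (6.40 to 22.6), with 0 downward (23.0%). Here too the clusters differed in share. Cluster 13, led by Npr3, H19 and Plvap, held 177 of the sham cells but 3 of TAC-4w and 18 of TAC-6w, and had little Asns (2.03 CPM in sham against 12.4 in cluster 5, led by Fabp4, Gpihbp1 and Aqp1). In cluster 5 alone, an alternative added after the data were seen, none of Ddit3 (1.197), Asns (1.25) and Trib3 (1.39) was past the fold in TAC-4w, and in TAC-6w Ddit3 (1.35) and Asns (1.39) were not, while Gdf15 stayed at 7.42 times sham (3.78 to 15.9; 12.3% of all genes upward). Gdf15 of TAC-4w was there past the fold downward, at 0.642 (0.301 to 1.46; 8.65%). The TAC-6w value rests on 45 UMIs in 9 cells, 40 of them in 5 cells. Mthfd2, too low to be tested, had 43 UMIs in sham, 17 of them in 5 cells, and 8 in TAC-4w. In cluster 5 alone it had 9 UMIs in sham and 8 in TAC-4w (0.273 times sham, 0.0917 to 0.797).

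Of the wider pathway, 7 lists of ATF4 and stress genes were read in the sections and in macrophage-like cells. The counts stand beside the share of all genes past the fold. In the TAC-4w section this was 15.5% upward and 3.98% downward, and in TAC-6w 17.6 and 1.59%. In the TAC-4w section, Atf3, a factor induced with ATF4, was 10.7 times sham (1.85 to 19.8 CPM, ratio interval 7.98 to 14.7) and Eif4ebp1, a brake on translation, 2.38 times, as 2 of the 3 of 12 other ATF4 targets and partners past the fold upward. The amino acid transporters Slc38a2 (2.12 times) and Slc3a2 (1.77 times) were the 2 of 7 past it, and of 12 cytosolic tRNA synthetases 2 were, Wars (2.30 times) foremost. Ppp1r15a, the phosphatase subunit that ends the response, was 2.02 times sham. Of 8 enzymes of amino acid synthesis, 1 was past it upward, Shmt1 (1.77 times), and 2 downward, Cth (0.349) and Gpt2 (0.565). In TAC-6w fewer were, with Nupr1 (2.04 times), Eif2ak2 (1.92 times), Aldh18a1 (1.87 times) and Shmt1 (1.72 times) among them. Of 13 genes of the unfolded protein response in the endoplasmic reticulum 0 were past the fold in any TAC section, and Hspa5 was 0.789 times sham in TAC-6w. Of 11 genes of mitochondrial stress and proteostasis 1 was in TAC-4w, Clpx at 1.503, and 1 in TAC-2w, Hspe1 at 1.52. In TAC-2w Aldh1l2 (1.52 times) was also past the fold upward, beside 5.22% of all genes. Among those past it downward there were 3 of 7 amino acid transporters, with Slc7a5 at 0.303, and Trib1 at 0.6625, beside 5.71%. Of 9 dissociation-stress and immediate early genes tested, 4 were past the fold upward in TAC-4w and 0 downward, with Hspa1a at 3.16 times sham (2.40 to 4.20) and Fos at 2.74 (1.62 to 4.85), and their part in the values of Atf3, Ddit3 and Ppp1r15a was not tested. The medians of the lists in TAC-4w lay between -0.12 and 0.32 on the log2 scale, beside 0.20 for all genes.

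In macrophage-like cells of TAC-4w the lists went in mixed directions, where 14.0% of all genes were past the fold upward and 13.3% downward. Atf3 was 0.424 times sham (1087 and 461 CPM in sham and TAC-4w) and Nupr1 0.519 times, whereas Ddit4 was 2.49 times, Slc7a1 2.19 times and Slc7a11 3.72 times (16 UMIs), and the kinases Eif2ak4 and Eif2ak3 2.12 and 2.02 times sham. Slc7a11 is among the 10 leading genes of a neutrophil-like cluster in an alternative clustering. Of 12 tRNA synthetases 2 were past the fold upward, Yars (1.69) and Cars (1.60), both with intervals that held 1. Of 11 mitochondrial stress genes 1 was past it upward (Dele1 1.53) and 1 downward (Lonp1 0.554). Of 10 dissociation-stress and immediate early genes 0 were past it upward and 3 downward, with Hspa1a at 0.238 and Hsp90aa1 at 0.329, and their part in the lower Atf3, Ddit3 and Gdf15 was not tested. The list medians lay within -0.39 and 0.35 on the log2 scale, beside 0.05 for all genes. In macrophage-like cells of TAC-6w, 3 of the 10 dissociation-stress and immediate early genes were past the fold upward (5.66% of all genes) and 0 downward. Median depth there was 3645 UMIs against 7282 in sham, and with cells thinned to 1000 UMIs the TAC-6w sum of the members was 1.46 times sham. The part of the dissociation-stress genes in the higher Gdf15 and sum of TAC-6w was not tested.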

How the data were processed

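Hearts of 1 sham condition and 3 times after TAC gave 4 Visium sections and 4 droplet libraries. The deposited files hold raw UMI counts per gene and barcode, which the authors made with Cell Ranger 7.0.0 and Space Ranger 1.3.1 on mm10 by the submitters' processing notes. The file headers and the article name other versions, and the labels describe nuclei where the article describes cells. The filters were those of the study (200 to 6000 genes, 500 to 30000 UMIs, under 15% mitochondrial), and the 3.2% of cells with the highest Scrublet scores (scanpy 1.11.5, expected rate 7%) were removed as doublets. Cells were clustered in Seurat 5.3.0 (3000 variable genes less the members, lists and rRNA-like features, 30 components, resolution 0.25), and all 17 clusters were named from 6 markers per type, so classes can differ from those of the study.

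UMIs were summed per section or class and library, divided by the total and given per 1000000 (CPM), with an exact Poisson interval (SciPy 1.17.1), and ratios with an exact conditional binomial interval. These cover counting error only. With 1 sample per condition no test was run. Genes needed at least 100 UMIs over the 4 samples. The code was tested on simulated counts with known folds. The named genes were the 10 members, Lars2, the 2 highest and 2 lowest of each list, up to 3 genes most like each member (at least 500 UMIs) and leading genes of clusters. Of these, the report gives a part. Members and lists were chosen with earlier results of these data known. Batch labels give no within-batch value for TAC-4w.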

Additional observations from a re-analysis of the deposited data

Results flagged for a closer look

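The results here stood on opposite sides of sham in different classes of cells, or in the section and a class of cells, of the same condition, a difference that was not tested. In TAC-4w, Asns was 2.45 times sham in endothelial cell-like cells and 0.633 times in fibroblast-like cells. Endothelial cell-like cluster 5 alone gave 1.25, and fibroblast-like cells thinned to 1000 UMIs gave 1.48, the other side of sham. Before thinning, fibroblast-like cells of TAC-4w held 32 Asns UMIs, 16 of them in 5 cells, so the thinned value rests on fewer still. Psat1 was 3.30 times sham in the TAC-4w section and 0.567 times in fibroblast-like cells of TAC-4w, where it had 21 UMIs. Cluster 0 of these cells gave 0.939 (0.398 to 1.9) and cluster 1 gave 0.327 (0.138 to 0.663). Mthfd2 was 2.11 times sham in the TAC-4w section and 0.211 times in macrophage-like cells, where it had 3 UMIs, and 1.32 times with monocyte-like cells joined in. The joined cells differ in makeup, with 216 monocyte-like cells in TAC-4w and 63 in sham.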

How the results depend on the processing

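Of 848 recomputed values of 118 results, 656 stayed within the counting interval (or within 1.5 times, for a count), 189 moved and 3 reversed. Only a ratio past the fold in the main setting could count as reversed. Other changes of side are among the values that stayed or moved. Counts below are of members past the fold in both directions, then of list genes, and the sum is the ratio to sham of the 10 genes. List genes include the dissociation-stress and immediate early genes. The cause of a move was not tested where the alternative's construction does not give it.

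For sections, the main counts of members were 1, 4 and 7 in TAC-2w, -4w and -6w, and the sums 0.961, 1.36 and 1.45. List genes were 7, 18 and 9, of which 2, 16 and 9 were higher than sham (5.22, 15.5 and 17.6% of all genes). The lower ones were 5, 2 and 0 (5.71, 3.98 and 1.59%). Of the 16 of TAC-4w, 4 were dissociation-stress and immediate early genes. With mitochondrial and rRNA-like features and Lars2 out of the total, TAC-6w had 5 list genes and 3 members. All 3 members and 3 of the list genes were higher than sham (8.49% of all genes), and 2 list genes were lower (2.97%). TAC-2w had 11 list genes, all lower (13.1%), and the sums were 0.822, 1.13 and 1.26. With the mean of each spot's CPM, TAC-2w had 0 members and 4 list genes, of which 3 were higher (7.48%) and 1 lower (4.73%). With the median ratio of all genes set to 1, TAC-6w had 3 members, all higher (6.5% of all genes). The sums of TAC-4w and TAC-6w were 1.18 and 1.18. With spots thinned to 5000 UMIs, only 4 members had enough UMIs, and 0, 2 and 1 of them were past the fold. The 2 of TAC-4w and the 1 of TAC-6w were higher than sham (17.6 and 18.8% of all genes). The sums were 1.05, 1.53 and 1.56, so TAC-2w passed to above 1. At a fold of 2, TAC-2w had 0 members and 1 list gene, lower than sham (1.62% of all genes). TAC-4w had 8 list genes, 7 higher (5.63%) and 1 lower (1.46%). TAC-6w had 2 members and 1 list gene, all higher (4.61%). With no minimum of UMIs, TAC-2w had 12 list genes, 4 higher (9.09%) and 8 lower (13.4%). TAC-6w had 14 of them, 13 higher (22.6%) and 1 lower (7.15%).

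For macrophage-like cells, the main counts of members were 1, 3 and 1, and the sums 1.04, 0.648 and 1.43. List genes were 1, 17 and 22, of which 0, 9 and 8 were higher than sham (1.28, 14.0 and 5.66% of all genes). The lower ones were 1, 8 and 14 (1.25, 13.3 and 17.2%). Dissociation-stress and immediate early genes were 3 of the 8 lower in TAC-4w and 3 of the 8 higher in TAC-6w. Members of TAC-6w were 2 with the reduced total, with the mean of each cell's CPM, with the median ratio set to 1 (sum 1.59), under 5% mitochondrial, with doublets kept and with each cell named by its own score. With the median ratio set to 1 both were higher than sham (9.52% of all genes). In each of the other settings 1 was higher (4.77 to 7.74%) and 1 lower (16.5 to 19.7%). Members of TAC-2w were 2 under 5% mitochondrial (list genes 2, sum 1.14), with doublets kept (list genes 2, sum 0.970) and with each cell named by its own score. With doublets kept both members and both list genes were lower than sham (2.82% of all genes). Under 5% mitochondrial and by own score 1 member was higher (2.16 and 1.23%) and 1 lower (1.96 and 1.15%). Of the 2 list genes under 5% mitochondrial, 1 was higher and 1 lower. Thinned to 1000 UMIs, only 3 members were tested. TAC-2w had 0 of them past the fold and TAC-4w 1, lower than sham (19.0% of all genes), and the TAC-4w sum was 0.778. With clusters formed with the members, TAC-4w had 5 of 6 tested, all lower (13.3%). At a fold of 2, TAC-2w and TAC-6w had 0 members. TAC-4w then had 9 list genes, 5 higher than sham (4.35% of all genes) and 4 lower (6.41%), and TAC-6w 3, 2 higher (1.45%) and 1 lower (4.23%). With no minimum of UMIs, members were 2, 7 and 4, and TAC-2w had 6 list genes, all lower than sham (9.04%). Of the 7, 3 were higher than sham (24.1% of all genes) and 4 lower (13.1%), against 0 and 3 with the minimum. Both of TAC-2w were lower (9.04%), and of the 4 of TAC-6w 1 was higher (14.3%) and 3 lower (19.2%). The TAC-4w sum was below 1 in 9 of 10 alternatives (0.597 to 1.02), and reversed to 1.02 without cells holding monocyte or neutrophil marker UMIs, an alternative added after the data were seen that left 18 TAC-4w cells (interval 0.719 to 1.41). Gdf15 was below sham in all 10 (0.207 to 0.587) and Ddit3 ran from 0.459 to 1.56. Mthfd2 of TAC-4w reversed to 1.32 when monocyte-like cells were joined in.

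For fibroblast-like cells, the main counts were 2 and 1 in TAC-4w and TAC-6w, and the sums 0.928 and 1.30. The TAC-6w sum was 1.26 with the reduced total and 1.27 under 5% mitochondrial. TAC-6w had 0 members with the mean of each cell's CPM (8.03% of all genes higher and 13.3% lower). With the median ratio set to 1 the sums were 0.853 and 1.36, and with each cell named by its own score 0.966 and 1.32. Thinned, 7 members were tested. TAC-4w had 1 past the fold, lower (13.2% of all genes), and TAC-6w 2, higher (7.59%). Asns of TAC-4w, with 32 UMIs before thinning, reversed to 1.48. At a fold of 2 both had 0 members, where 6.4 and 2.33% of all genes were higher and 4.03 and 4.76% lower. With no minimum TAC-6w had 2, higher (15.2%). In alternatives added after the data were seen, cluster 0 alone gave sums of 1.196 and 1.17 and cluster 1 alone 0.971 and 0.986, each with 2 members in TAC-6w, both higher than sham in cluster 0 (Ddit3 and Mthfd2; 10.3%) and both lower in cluster 1 (Asns and Phgdh; 19.5%). For endothelial cell-like cells, the main counts were 3 and 3 of 6 tested, all higher than sham (17.8 and 13.8% of all genes), and the sums 0.895 and 1.36. TAC-4w had 1 member of 6, higher, with the median ratio set to 1 (12.7%) and at a fold of 2 (6.17%). With doublets kept it had 5, 2 higher (17.9%) and 3 lower (14.8%), against 3 and 0. With no minimum it had 5, 4 higher (19.2%) and 1 lower (21.1%), and TAC-6w 6, 4 higher (19.5%) and 2 lower (25.6%). Thinned, only 1 member had enough UMIs to be tested, and it was past the fold in neither. Under 5% mitochondrial 3 were tested and both had 1 member, higher than sham (22.6 and 16.9%), with sums of 0.989 and 1.57. Cluster 5 alone, also added later, gave 1 member in each, Gdf15, lower than sham in TAC-4w (0.642; 8.65%) and higher in TAC-6w (7.42; 12.3%).

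The Lars2 split moved to 0.972 in sham when only the cells at both extremes of the Lars2 share were compared and to 0.962 in TAC-6w when thinned. The promoter count was 1 of 13 with TGATGCAA alone. No paired analysis was possible because each condition had 1 section and 1 library, and for the same reason no replicate could be left out. Depth limits what can be seen: in the sections Gdf15, Psat1, Phgdh and Mthfd2 had under 40 UMIs in sham, and in TAC-4w macrophage-like cells a count of 0 still allows 3 UMIs.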
